A study of Mus musculus with 6 samples.

Results

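Lipases and fatty acid uptake genes govern how fat in blood and in lipid droplets becomes available to a liver cell. The 8 genes listed were the lipases Lpl, Lipc and Mgll, the receptors Cd36 and Vldlr, and the fatty acid transport proteins Slc27a2, Slc27a4 and Slc27a5. They were chosen by name, with earlier results of these data known. Every probe set that the platform annotation assigns to exactly 1 of these symbols was taken. That gave 18 of the 45101 probe sets of the larger array design, for 7 of the 18194 genes with such a probe set. Lipc, hepatic lipase, was not analysed here. Of the 18 probe sets, 16 were on both array designs and 2, both for Vldlr, on the larger one alone.

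The samples are livers of C57BL/6J mice, a common inbred strain, on a control diet or a high-fat diet (HFC in the design text), whose composition is not stated in the labels. There were 6 arrays, 1 for each diet at weeks 2, 4 and 10, and the study followed the liver's response to high-fat feeding over time. RNA was extracted per mouse, but sex, age and the number of mice behind an array are not in the labels. Weeks 2 and 10 were run on a smaller design, and week 4 on a larger one whose table was scaled separately.

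Signals below are the deposited linear intensities, rescaled so that all arrays share 1 median. Signals under 155.3, the 40th percentile, count as not measured and were set to that floor, so that with 1 of the diets at the floor a difference is only a bound. Single weeks have no replicate and no test. The test over the 3 weeks rests on how far that difference varied from week to week, which may be technical. The fit also shares variance in part over all tested probe sets. Standard errors, intervals and p-values thus do not measure the spread of a single probe set alone. In whole liver, fewer cells of a type and less RNA per cell cannot be told apart.

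Between 50.4% and 65.8% of the shared probe sets of an array passed the floor. The 9 measured hepatocyte markers, Alb among them, were above the floor on all 6 arrays. The 3′ to 5′ signal ratio of pyruvate carboxylase, which rises as RNA breaks down, was 3.82, 4.26 and 4.01 on the control arrays of weeks 2, 4 and 10 and 9.64, 7.78 and 2.39 on the high-fat arrays. For actin it was 1.20, 2.15 and 1.73 on control and 1.61, 2.35 and 1.17 on high-fat, and for Gapdh it lay between 0.78 and 1.01 on all 6. The part of RNA quality in the differences below was not tested.

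Lipoprotein lipase works at the vessel wall, where it frees fatty acids from circulating triglyceride, and adult hepatocytes normally make little of it. CD36, a scavenger receptor, carries long-chain fatty acids across the membrane and is known to be raised in fatty liver, while VLDLR, normally low in liver, takes up triglyceride-rich particles. The SLC27 proteins bring in fatty acids and join them to coenzyme A. SLC27A2 and SLC27A5 are the main ones of the hepatocyte, the latter also acting on bile acids, and SLC27A4 is better known from the intestine. Monoacylglycerol lipase, from Mgll, completes the breakdown of triglyceride.

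Sequences upstream of the gene start are shown for Cd36 and Slc27a2, as examples of a receptor and a main transport protein of the hepatocyte. They are the 250 bases before a RefSeq start (GRCm38.p6), at chr5:17835897-17836146 on the minus strand for Cd36 and at chr2:126552774-126553023 on the plus strand for Slc27a2. Capitals mark AGGTCA, the half-site that many nuclear receptors bind, and GGGCGG, the GC box, searched on both strands.
Cd36: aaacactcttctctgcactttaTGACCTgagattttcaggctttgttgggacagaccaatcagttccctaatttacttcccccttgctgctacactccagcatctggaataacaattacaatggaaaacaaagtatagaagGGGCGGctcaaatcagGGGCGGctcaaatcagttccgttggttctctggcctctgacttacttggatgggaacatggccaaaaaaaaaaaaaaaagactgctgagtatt
Slc27a2: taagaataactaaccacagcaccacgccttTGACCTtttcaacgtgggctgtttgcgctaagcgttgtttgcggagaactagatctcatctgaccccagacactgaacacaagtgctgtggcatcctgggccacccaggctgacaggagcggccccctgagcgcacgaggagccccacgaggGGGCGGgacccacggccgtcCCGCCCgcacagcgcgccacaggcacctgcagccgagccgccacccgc
Each window held 1 half-site and 2 GC boxes. Of 32851 RefSeq windows of this length, 14.0% held the half-site and 32.7% the GC box. The E-box CACGTG, found in 6.02% of windows, was in neither. Both windows thus hold the same number of each motif, and a match describes letters, not a bound site. Of the windows not shown, those of Slc27a4, Mgll and Vldlr held 0 half-sites, and those of Lipc held 0 and 2.

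No probe set of these genes passed the test over the 3 weeks. Of the 12 that could be tested, limma with Benjamini-Hochberg adjustment called 0 higher with high-fat and 0 lower. Of all 14533 tested probe sets it called 0.0138% higher, namely Krt23 and Dbp, and 0.00% lower. At an unadjusted p under 0.05, 3 of the 12 were higher (1 of Lpl and 2 of Cd36) and 0 lower, beside 1.70% and 2.33% of all tested. Above the floor on all 6 arrays were 11 of the 12, and the other, the dim probe set of Lpl, passed the filter on 3 arrays, 2 of them high-fat. Probe sets of 1 gene share their target and are not independent. The median of the mean log2 differences was 0.33 over the 12 and -0.03 over all tested.

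Within weeks, the wider differences belonged to Lpl and Cd36, towards the high-fat diet. At week 2, 3 of the 16 shared probe sets were at least 1.5-fold higher and 0 lower, where all shared probe sets gave 5.00% and 7.20% and those tested 7.38% and 10.2%. With values as deposited, not centred, 0 were higher and 5 lower at week 2, where the median over all tested probe sets was -0.67 on the log2 scale. At week 4, 5 were higher and 1 lower, where the shared gave 3.03% and 4.77% and the tested 4.46% and 7.27%. With quantile normalization or loess these were 6 and 0. At week 10, 2 were higher and 0 lower, where the shared gave 10.4% and 9.80% and the tested 14.0% and 13.6%. Higher at each of the 3 weeks were 5 of the 12, beside 8.24%, and lower at each week 1, beside 11.7%. The 5 were 1 probe set of Lpl, 2 of Cd36 and 2 of Mgll, and the 1 was that of Slc27a2. These shares are not those of a like set. A week with both arrays at the floor gives a difference of 0, which counts in neither direction, and 11 of the 12 were never at the floor. With values as deposited, Cd36 1423166_at and both of Mgll were lower at week 2 (-0.13, -0.31 and -0.47).

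**Figure D1:**
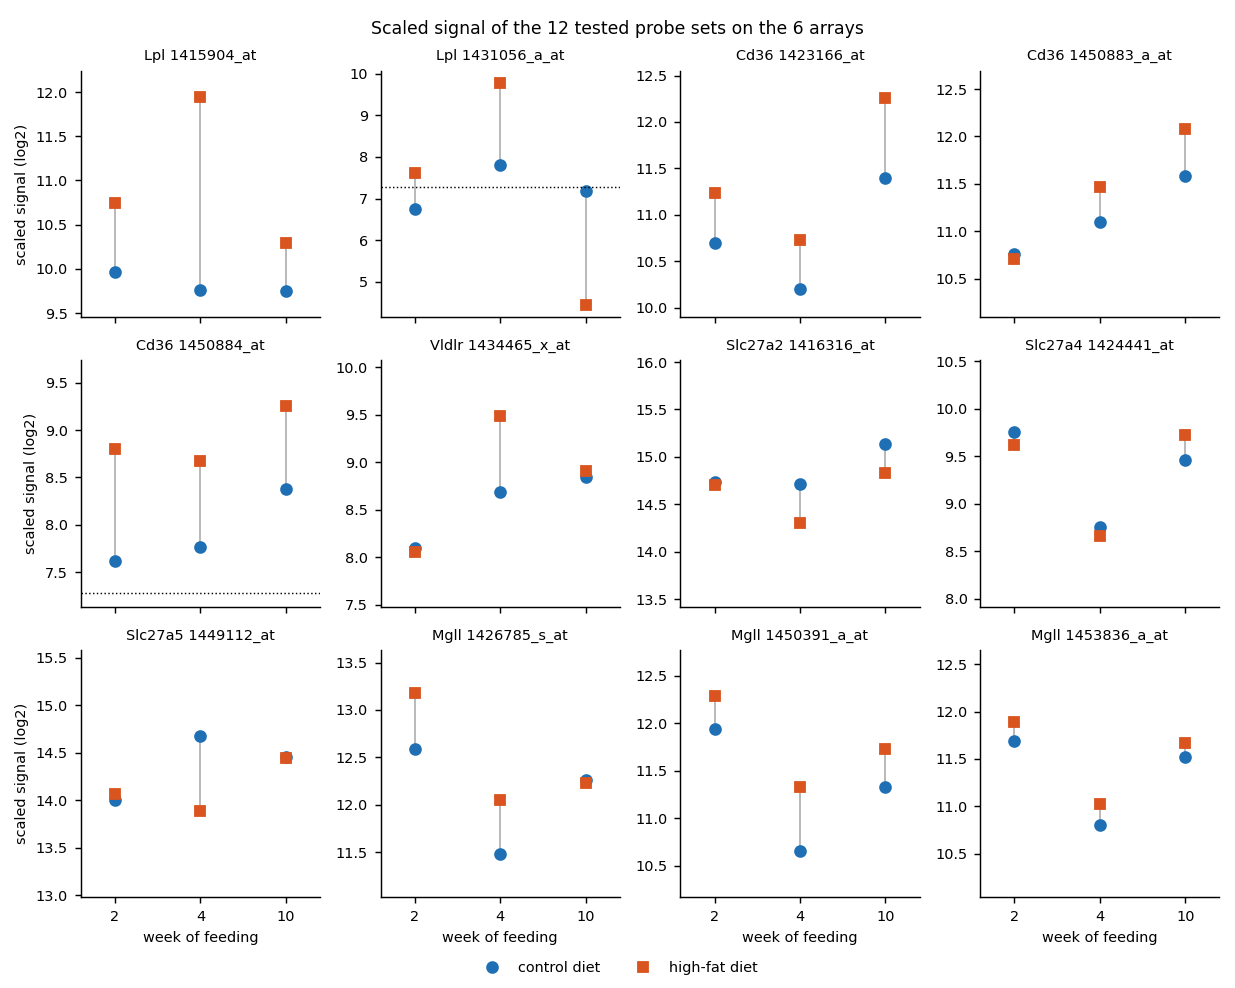
Scaled signal (log2) of the 12 tested probe sets against week of feeding, with a circle for the control and a square for the high-fat array of each week, joined by a grey line; panels have their own ranges, and the dotted line is the floor at 7.28. Lpl 1415904_at lies higher on high-fat at each week and most so at week 4, and Cd36 1450884_at lies higher at each week.

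Lpl had the widest single-week difference of these genes. On its brighter probe set, 1415904_at, the control arrays of weeks 2, 4 and 10 read 999, 870 and 862 and the high-fat arrays 1711, 3936 and 1256. The controls lay close together, high-fat at week 4 stood far above the rest, and the diets did not overlap. Such a gap upward was found in 1.49% of tested probe sets, and in 2 of the 12 here; a gap downward was found in 2.20%, and in 0 of the 12. The folds were 1.71, 4.52 and 1.46 towards high-fat, and at week 4 only 1 of the 14533 tested probe sets had a larger difference upward. Over the 3 weeks the log2 mean was 1.17 (standard error 0.315, unadjusted 95% interval 0.46 to 1.87, 3 arrays per diet), with a limma adjusted p of 0.993. Without week 4 it was 0.66. With values as deposited, not centred, the week 2 difference was 0.11 on the log2 scale, in place of 0.78.

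The dim Lpl probe set, 1431056_a_at, also had its largest difference at week 4, with 224 on control and 873 on high-fat, 3.90-fold apart. At week 2 it read 197 on high-fat and was under the floor on control, at least 1.27-fold lower there. At week 10 it was under the floor on both diets. It therefore gave no measured difference at week 10. With week 10 counted as 0, the log2 mean was 0.77 (standard error 0.349, limma adjusted p = 0.993). That mean was 0.17 without week 4 and 0.41 with the floor at the 20th percentile.

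Fat, muscle and macrophages also make Lpl, so their markers were read beside it. Of the 6 adipocyte markers measured, 1 to 3 were above the floor on an array, and Adipoq, Lep and Cidea were under it on all 6. Fabp4 was above it on all 6, with 457 on control and 711 on high-fat at week 4. Lipe was above it on 5, with 308 on control at week 4 and under the floor on high-fat. Retn was above it on 3, and under it on both diets at week 4. The summed signal of the adipocyte markers ran from 1353 to 1690 on control and from 1395 to 1488 on high-fat arrays. At week 4, 0 of 10 muscle markers were above the floor on either diet, and 2 or 3 were on the other arrays, with sums of 1553 to 1746 on control and 1553 to 1802 on high-fat. All 13 macrophage and Kupffer cell markers were above it at week 4, with sums of 34372 on control and 33700 on high-fat. The muscle sums at week 4 are the floor itself, and the adipocyte sums count each marker under the floor at that floor. The part of these cells in the Lpl difference was not tested.

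Cd36 was measured by 3 probe sets, which the annotation ties to 1 source sequence. On 1450884_at, the dimmest, the control signals at weeks 2, 4 and 10 were 196, 217 and 332 and the high-fat signals 445, 408 and 610.02. High-fat was above every control array, by 2.27-fold, 1.88-fold and 1.84-fold within the weeks. The log2 mean was 0.99 (standard error 0.215, unadjusted 95% interval 0.51 to 1.47, 3 arrays per diet), at rank 14 of 14533 by p, with a limma adjusted p of 0.993. It stayed between 0.89 and 1.05 with any 1 week left out, and was 0.44 with the floor at the 60th percentile.

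On 1423166_at Cd36 gave 1654, 1173 and 2691 on control and 2402, 1702 and 4880 on high-fat. The diets overlapped, since control at week 10 was above high-fat at weeks 2 and 4, but within each week high-fat was higher, by 1.45-fold, 1.45-fold and 1.81-fold. Over the weeks the log2 mean was 0.64 (standard error 0.216, unadjusted 95% interval 0.16 to 1.13, limma adjusted p = 0.993). With values as deposited, not centred, the week 2 difference was -0.13 on the log2 scale. The probe set 1450883_a_at differed less, with 1730, 2188 and 3079 on control and 1677, 2824 and 4319 on high-fat. Its diets were nearly equal at week 2 and overlapped over the weeks. Its log2 mean was 0.27 (standard error 0.223, limma adjusted p = 0.993), 0.43 without week 2 and 0.16 without week 10. So the size of the Cd36 difference depended on the probe set.

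Macrophages and endothelial cells also make CD36. Macrophage sums at weeks 2 and 10 were 23104 and 15625 on control and 20929 and 26353 on high-fat, and at week 10, 9 of the 13 markers were at least 1.5-fold higher. Of the endothelial markers, 9 or 10 of 10 were above the floor, with sums at weeks 2, 4 and 10 of 9477, 11547 and 6833 on control and 8053, 10078 and 10594 on high-fat. Both sums were higher with high-fat at week 10 and lower at week 2, and at week 4 the macrophage sums, given above, were nearly equal. The part of these cells in the Cd36 differences was not tested at any week. Stellate sums ran from 9942 to 17829 on control and from 13344 to 18578 on high-fat arrays, and pancreatic acinar sums from 1800 to 2551 and from 1779 to 3113.

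**Figure D2:**
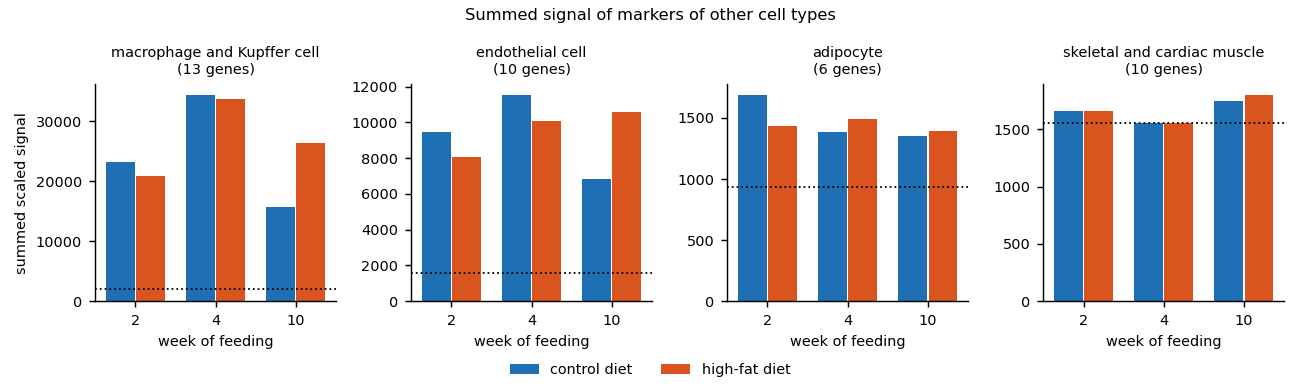
Summed scaled signal (linear, from 0) of the markers of 4 other cell types on each array, with blue bars for control and orange bars for high-fat by week; values under the floor count as the floor, and the dotted line is the sum with all genes at the floor. Macrophage and endothelial sums are higher with high-fat at week 10, macrophage sums are nearly equal at week 4, and muscle sums lie near the dotted line.

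Cd36 also read higher at week 10 than at week 2 within each diet, a comparison of 1 array each on the smaller design. The log2 differences were 0.70, 0.83 and 0.76 on control for 1423166_at, 1450883_a_at and 1450884_at, and 1.02, 1.36 and 0.46 on high-fat. At least 1.5-fold higher at week 10 were 4 of the 12 tested probe sets on control, beside 12.2% of all tested, and 3 on high-fat, beside 20.3%. They were those of Cd36, apart from 1450884_at on high-fat, and Vldlr 1434465_x_at with 0.75 and 0.85. Mgll went the other way, with -0.61 for 1450391_a_at on control and -0.96 for 1426785_s_at on high-fat, the 1 probe set on each diet that was at least 1.5-fold lower (beside 10.4% and 14.6%). Time and array run cannot be told apart.

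Vldlr was dim. On 1434465_x_at, whose suffix marks possible binding of other transcripts, control read 274, 413 and 459 at weeks 2, 4 and 10 and high-fat 267, 719 and 482. The diets were nearly equal at weeks 2 and 10 and 1.74-fold apart at week 4, with high-fat above all other arrays. Its log2 mean was 0.28 (standard error 0.243, unadjusted 95% interval -0.27 to 0.82, limma adjusted p = 0.993), and 0.02 without week 4. Of the other 5 Vldlr probe sets, 1442169_at and 1451156_s_at were under the floor on all 6 arrays, and 1435893_at and 1438258_at, of the larger design, on both arrays of week 4. The remaining 1417900_a_at passed the floor on high-fat at week 2, with 157, and on control at week 10, with 224, where high-fat was at least 1.44-fold lower. The measured probe sets of Vldlr thus had no common direction.

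**Figure D3:**
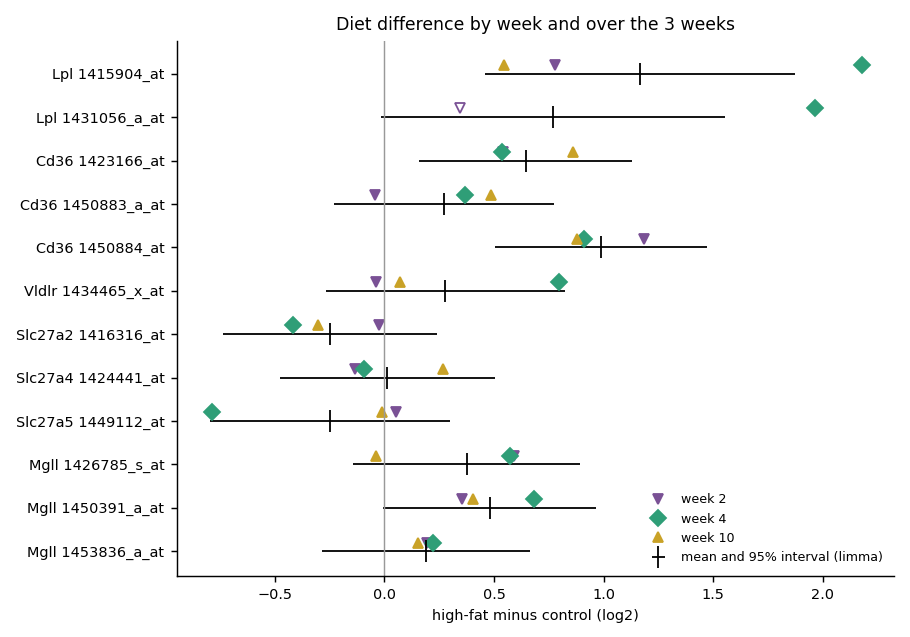
High-fat minus control difference (log2) of each tested probe set at weeks 2, 4 and 10, with filled symbols for measured values and an open symbol for a bound; the black bar is the limma mean with its unadjusted 95% interval over the 3 weeks. Lpl 1415904_at (0.46 to 1.87), Cd36 1423166_at (0.16 to 1.13) and Cd36 1450884_at (0.51 to 1.47) have intervals above 0, and the 3 transport proteins have intervals that span it.

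Mgll was bright on 3 of its 4 probe sets. On 1450391_a_at it gave 3920, 1609 and 2570.1 on control and 5011, 2582 and 3400 on high-fat at weeks 2, 4 and 10. Within each week high-fat was higher, by 1.28-fold, 1.60-fold and 1.32-fold, but the diets overlapped. Both were lowest at week 4, which was run on the larger design. The log2 mean was 0.48 (standard error 0.216, limma adjusted p = 0.993), and the unadjusted 95% interval reached 0. With values as deposited, not centred, the week 2 difference was -0.31 on the log2 scale. On 1453836_a_at the differences were small, with 3304, 1790 and 2935 on control and 3784, 2087 and 3260 on high-fat (log2 mean 0.19, standard error 0.211, limma adjusted p = 0.993).

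The brightest Mgll probe set, 1426785_s_at, may bind related transcripts and gave 6160, 2851 and 4918 on control and 9291, 4236 and 4787 on high-fat. High-fat was 1.51-fold and 1.49-fold higher at weeks 2 and 4, and the diets were nearly equal at week 10. This gave a log2 mean of 0.38 (standard error 0.231, limma adjusted p = 0.993), and 0.58 without week 10. The fourth probe set, 1431331_at, was above the floor only on control at week 10, with 159. With all 4 probe sets averaged, that dim one included, the Mgll mean was -0.04. That average was taken before low values were raised to the floor. It therefore includes values of 1431331_at that count as not measured.

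The transport proteins had no difference towards high-fat of the size seen for Lpl and Cd36. Slc27a2 on 1416316_at read 27186.5, 26952 and 35880 on control and 26703, 20213 and 29076 on high-fat at weeks 2, 4 and 10. It was slightly lower on high-fat at each week, by 1.02-fold, 1.33-fold and 1.23-fold, and the diets overlapped. The log2 mean was -0.25 (standard error 0.217, unadjusted 95% interval -0.74 to 0.24, limma adjusted p = 0.993).

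Slc27a5 on 1449112_at read 16467, 26140 and 22544 on control and 17097, 15155 and 22349 on high-fat. The diets differed at week 4 alone, by 1.72-fold towards control. The log2 mean was -0.25 (standard error 0.244, unadjusted 95% interval -0.80 to 0.30, limma adjusted p = 0.993), and 0.02 without week 4. Slc27a4 on 1424441_at read 867, 431 and 704 on control and 789, 404 and 848 on high-fat. Its level was lowest on both diets at week 4, the week run on the larger design, so time and design cannot be told apart. The diets lay within 1.20-fold of each other at each week. The log2 mean was 0.01 (standard error 0.219, unadjusted 95% interval -0.48 to 0.50, limma adjusted p = 0.9997). With values as deposited, not centred, the standard error was 0.353 and the week 2 difference -0.81 on the log2 scale.

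Bright hepatocyte genes were lower on high-fat as well. The summed signals of the 9 hepatocyte markers at weeks 2, 4 and 10 were 331812, 395204 and 553497 on control and 298111, 215455 and 416892 on high-fat, and at week 4 all 9 were at least 1.5-fold lower. With quantile normalization the log2 mean was 0.13 for Slc27a2 and 0.0073 for Slc27a5, and with a loess correction for brightness 0.06 and 0.02, so that both turned direction. At week 4 the Slc27a5 difference went from -0.79 to -0.24 with that loess correction, and that of Lpl 1415904_at from 2.18 to 2.21.

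Among other lipases and their regulators, 0 of 22 tested genes were called by limma in either direction (0 higher and 1 lower at an unadjusted p under 0.05), and the median log2 mean was -0.05, beside -0.03 for all tested probe sets. Apoc1 and Apoc3, apolipoproteins known to restrain lipoprotein lipase, had mean log2 differences of -0.52 and -0.50, with -0.85 and -0.89 at week 4. Ces1d, a carboxylesterase that hydrolyses triglyceride, had -0.57. These 3 were lowest against control at week 4, where the hepatocyte markers were lower too. Pnpla3, a lipid droplet protein, was above the floor on both diets only at week 10, with 1.67. Its values at weeks 2 and 4, with 1 of the diets at the floor, were -0.60 and 0.88, and the mean of 0.65 rests on them.

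Among other genes of fatty acid and lipoprotein uptake, 0 of 18 tested were called by limma (2 higher and 0 lower at an unadjusted p under 0.05), with a median of -0.03. The fatty acid binding proteins Fabp5 and Fabp2 had mean log2 differences of 1.83 and 1.11 and were higher at each week. Cav1, a caveolar protein abundant in endothelium, had 0.61, with at least 1.72 at week 10, where the endothelial sum was higher. Sdc1, a proteoglycan that takes up remnant particles, had -0.41. Of 19 tested transcription factors and coactivators, 0 were called by limma (2 higher and 0 lower at an unadjusted p under 0.05), with a median of -0.01. The lipogenic factors Mlxipl and Srebf1 had 0.79 and 0.56 with their highest values at week 10 (1.23 and 1.08), Cebpa had 0.45 and Atf4 -0.36.

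Genes with a pattern most like Lpl and Cd36 were sought among probe sets of 1 symbol above the floor on all 6 arrays, by the distance over the 3 within-week log2 differences. For Lpl 1415904_at the nearest of 8847 were Paics, a purine synthesis enzyme, with 0.97, 1.54 and 0.11 (distance 0.79) and Cmtm6 with 0.54, 1.32 and 0.03 (distance 1.02). Both had their highest difference at week 4, like Lpl, but a smaller one. For Cd36 1450884_at the nearest of 8845 were Atp9a with 1.003, 0.69 and 0.81 (distance 0.29) and Bdh1, a ketone body enzyme, with 0.89, 1.06 and 0.82 (distance 0.34).

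**Figure D4:**
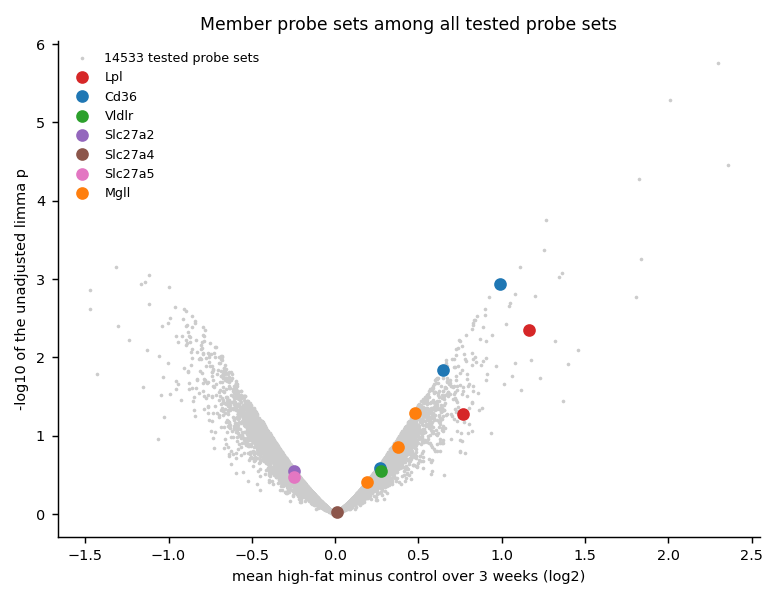
Mean high-fat minus control difference over the 3 weeks (log2) against -log10 of the unadjusted limma p for the 14533 tested probe sets in grey, with the 12 probe sets of these genes in colour. Cd36 1450884_at (0.99) and Lpl 1415904_at (1.17) lie among the upper points on the right, and Slc27a4 (0.01) lies at the base.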

How the data were processed

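Liver RNA was hybridised to Affymetrix arrays of 2 designs (45101 and 22690 probe sets). The authors deposited linear intensity per probe set; how it was summarized is not stated in the labels. Trimmed means were near 500 on 5 arrays and 800.3 on control at week 2. Intensities were turned to log2 and centred on each array's median over probe sets always above the floor, and lower values were raised to the floor. Of 22626 shared probe sets (64 controls excluded), 20380 had 1 symbol, 691 several and 1555 none here. The 14533 above the floor on at least 3 arrays were fitted with limma 3.58.1 (R 4.3.3; lmFit and eBayes), blocking on week, with Benjamini-Hochberg adjustment and a threshold of 0.05. The fit was tested on simulated data. The brightest probe set stood for a gene in lists. The members and lists were chosen with earlier results of these data known. Named were all members, in each list the 4 genes that differed most, and the 2 nearest patterns for members at least 2-fold different at a week and above the floor on all 6 arrays. Promoter windows (RefSeq, GRCm38.p6) matched 6 of the 8 genes by symbol. Precision is limited by the number of arrays. Alternatives changed scaling, floor, filter, gene summary, block, weeks and variance model. Figures used matplotlib 3.10.9.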

Additional observations from a re-analysis of the deposited data

How the results depend on the processing

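No probe set of these genes was called under any alternative run; the smallest adjusted p was 0.0839, for Lpl 1415904_at without week 10. Mean differences of Lpl, Cd36 and Vldlr, and of Mgll 1450391_a_at and 1453836_a_at, kept their direction under each alternative in which they were tested, with Lpl 1415904_at from 0.60 (mean of its probe sets) to 1.48. Directions turned for Slc27a2 with quantile normalization (0.13) and loess on brightness (0.057), for Slc27a5 with these (0.0073 and 0.021), for Slc27a4 with values as deposited (-0.18) and for Mgll 1426785_s_at with the mean of all probe sets (-0.040). The mean of a gene's probe sets was taken before low values were raised to the floor. So the 0.60 for Lpl and the -0.040 for Mgll include values that count as not measured. With 1 week left out, Slc27a4 ranged from -0.11 (without week 10) to 0.089 and Slc27a5 from -0.40 to 0.021 (without week 4). Values as deposited skip the centring, with a median difference of -0.67 at week 2, and gave 5 probe sets of these genes past 1.5-fold there, all lower, in place of 3, all higher. The floor at the 20th percentile gave 5 at week 10, 2 higher and 3 lower, in place of 2 higher; the 3 were dim probe sets of Lpl, Vldlr and Mgll. Over all probe sets, the 2 called higher became 6 with values as deposited, 1 with trend and robust, 0 with quantile normalization, the other floors, no filter, no week block or loess, and 0 (without week 4) to 7 (without week 2) with 1 week left out. The 0 called lower became 4 with values as deposited and 0 to 2 with 1 week left out. The cause of these changes was not tested.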
